A study of Mus musculus with 6 samples.

Results

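Krt80, Kcng4, Csdc2, Spsb4, Tmem56, Rom1, Rnf157 and Gm4980 are 8 genes with low read counts in mouse soleus, out of 24411 genes in the count table. They were chosen by their measured values: each lay outside the cluster that the study numbered 6 and was about 2-fold or more higher in LSD1-mKO than in WT in a DESeq2 fit of these same counts. Their rise is therefore a description of how they were picked and carries no test here. All 8 passed edgeR's filter on low counts and are among the 12828 genes tested. They come from unrelated protein families and include a keratin, a potassium channel subunit, membrane proteins, an RNA-binding protein and parts of ubiquitin ligases.

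The series holds soleus RNA from 3 WT and 3 LSD1-mKO male mice, all taken after voluntary wheel running (VWR). Each mouse gave 1 library, and sedentary mice are not among the samples. LSD1-mKO mice carried Lsd1 flox/flox and the transgene Tg ACTA1-CreERT2/+, in which the human ACTA1 promoter drives a tamoxifen-inducible Cre in differentiating and differentiated muscle cells. WT mice were Lsd1-floxed without CreERT2, and the labels name C57BL/6 as the strain of both. Both genotypes were 8 weeks old at the start and spent 38 days with a wheel. The first 3 of these days served as familiarization, and tamoxifen was then injected on each of 5 days, 75 mg per kg of body weight. Endothelial, connective tissue, nerve and immune cells of the muscle lie outside the reach of this promoter. In bulk muscle, fewer cells of a type and less RNA per cell cannot be told apart.

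LSD1, encoded by Kdm1a, is a histone demethylase that removes methyl groups from lysines of histone H3 and works with the CoREST complex, mostly as a repressor of transcription. Loss of a repressor can raise genes that a tissue normally keeps low, among them genes best known from other cell types. Soleus is a slow-dominant muscle whose fibers depend on oxidative metabolism.

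Kdm1a stood at 40.5, 38.2 and 33.6 counts per 1000000 (CPM, scaled by edgeR's TMM factors) in WT mice 1 to 3 and at 14.6, 16.6 and 16.6 CPM in LSD1-mKO mice 1 to 3. The groups did not overlap, and on average 42.6% of the WT level was left in LSD1-mKO. The fitted log2 fold change was -1.23 ± 0.11 (SE), with a Benjamini-Hochberg adjusted p of 0.0160 in edgeR's quasi-likelihood test. The exact two-sided permutation p was 0.1, the smallest that 3 mice against 3 allow. Over the 16 alternative settings the adjusted p ran from 7.81e-11 to 0.299, and the call was lost without WT mouse 2, without LSD1-mKO mouse 1, 2 or 3, and with the replicate number as a block. Library totals were 8940206 to 10989846 estimated counts in WT and 10984664 to 13798059 in LSD1-mKO, so most LSD1-mKO libraries were deeper.

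Promoter sequences are shown first, although each gene was picked singly for its rise and not for moving with the others. RefSeq windows of GRCm38.p6, from 250 bases before to 50 bases after a transcription start, matched 6 of the 8 genes. Tmem56 was matched under its RefSeq name Tlcd4 and has 2 starts, and Gm4980 under Tpbgl. Krt80 and Csdc2 had no entry. The 4 sequences printed here were chosen because between them they show each of 3 motifs. Capitals mark the GC box (GGGCGG, read by Sp-type factors), the nuclear receptor half-site (AGGTCA) and the E-box (CAGCTG, read by myogenic bHLH factors), each on either strand. All 4 lie on the minus strand and are written 5′ to 3′: Kcng4 at chr8:119635631-119635930, Spsb4 at chr9:97018306-97018605, Rom1 at chr19:8929307-8929606 and Gm4980 at chr7:99627054-99627353.
Kcng4: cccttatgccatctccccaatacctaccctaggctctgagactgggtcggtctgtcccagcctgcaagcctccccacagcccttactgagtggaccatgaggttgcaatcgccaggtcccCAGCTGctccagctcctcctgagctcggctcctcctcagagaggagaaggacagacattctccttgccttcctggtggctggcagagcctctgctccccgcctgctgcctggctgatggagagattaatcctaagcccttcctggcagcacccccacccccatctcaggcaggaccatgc
Spsb4: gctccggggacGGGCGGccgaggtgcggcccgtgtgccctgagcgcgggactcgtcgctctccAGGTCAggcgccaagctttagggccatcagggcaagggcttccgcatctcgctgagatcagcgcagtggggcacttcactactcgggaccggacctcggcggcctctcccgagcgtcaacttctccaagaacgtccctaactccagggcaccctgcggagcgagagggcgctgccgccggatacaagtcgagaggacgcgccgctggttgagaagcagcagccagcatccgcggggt
Rom1: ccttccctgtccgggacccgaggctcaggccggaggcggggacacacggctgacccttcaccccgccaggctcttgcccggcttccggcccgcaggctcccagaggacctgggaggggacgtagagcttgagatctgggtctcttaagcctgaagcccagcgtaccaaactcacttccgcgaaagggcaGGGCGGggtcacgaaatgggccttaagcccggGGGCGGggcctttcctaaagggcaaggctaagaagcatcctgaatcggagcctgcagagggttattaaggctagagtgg
Gm4980: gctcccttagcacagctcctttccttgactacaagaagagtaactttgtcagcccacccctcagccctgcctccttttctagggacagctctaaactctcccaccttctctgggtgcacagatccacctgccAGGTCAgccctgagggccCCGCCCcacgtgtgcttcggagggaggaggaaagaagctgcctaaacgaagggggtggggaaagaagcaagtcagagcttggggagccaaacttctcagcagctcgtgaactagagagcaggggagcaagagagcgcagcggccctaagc

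The GC box was the motif found in most of these promoters. It occurred in 5 of the 6 genes, all but Kcng4, against 35.7% of all 32851 RefSeq windows of the same length. The windows of the 6 genes were 54.3% to 78.3% G and C, and all windows had a median of 52.7% with quartiles of 45.7% and 61.7%. The half-site AGGTCA occurred in Spsb4 and Gm4980 (16.3% of all windows), and the E-box CAGCTG in Kcng4 alone (16.3%). The pentamer CCAAT lay in Kcng4 and Rnf157 (37.4%). No window held the ERR element TNAAGGTCA (1.3% of all windows), the TATA box TATAAA (13.6%) or the forkhead motif TGTTTAC (3.6%). The element TNAAGGTCA contains AGGTCA, so those matches overlap by construction. A match is a string of letters and not a bound site, and an absent one says only that these letters are not in this window. The RefSeq start of Spsb4 lies 488 bases inside the GENCODE vM21 gene, and those of Tmem56 lie 19758 and 19931 bases inside it, so other starts of these genes were not searched.

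In WT soleus every one of the 8 genes was below the median tested gene, whose mean over the 6 mice was 19.2 CPM. Averaged over all mice they stood between the 20.2 and 45.9 percentiles of the tested genes, with Gm4980 lowest and Kcng4 highest. The label of low abundance therefore held in WT for all 8, whereas in LSD1-mKO the means of Krt80 and Kcng4 lay above 19.2 CPM. In TPM, with a median of 13.3, the LSD1-mKO means above it were those of Rom1 (15.8) and Kcng4 (13.8). Estimated counts ran from 7, for Gm4980 in WT mouse 1, to 392, for Krt80 in LSD1-mKO mouse 1.

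**Figure D1:**
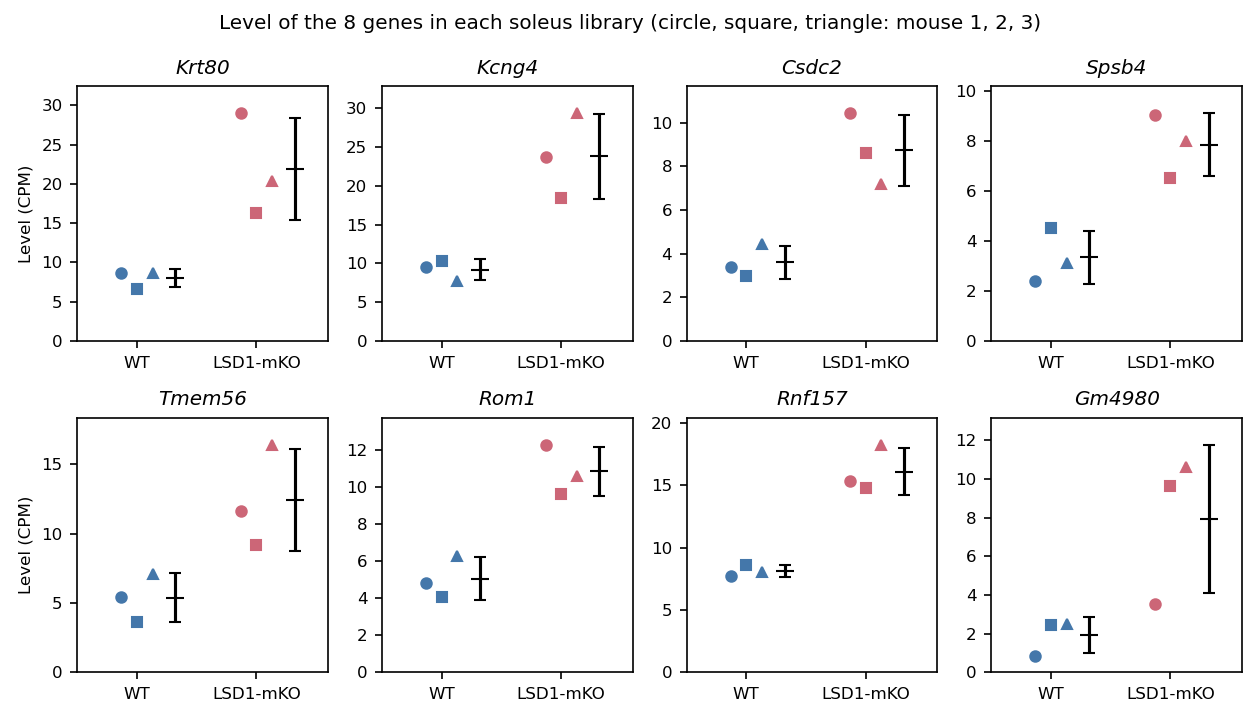
Level of each gene in counts per 1000000 (CPM, vertical axes, each from 0) in the 3 WT (blue) and 3 LSD1-mKO (red) soleus libraries. Circles, squares and triangles are mice 1, 2 and 3 of a genotype, and the bar beside them is the mean ± SD. The genes were picked for this difference; all 3 LSD1-mKO mice lie above all 3 WT mice in each panel, closest for Tmem56 and Gm4980.

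Krt80 encodes a type II keratin, an intermediate filament protein best known from epithelia. The gene lies at chr15:101347444-101370162 on the minus strand of GRCm38. Its level was 8.68, 6.66 and 8.62 CPM in WT mice 1 to 3 and 29.0, 16.4 and 20.4 CPM in LSD1-mKO mice 1 to 3. The lowest LSD1-mKO mouse was 1.88 times the highest WT mouse, the widest gap of the 8 genes, and mouse 1 stood well above the other LSD1-mKO mice. Means were 7.99 ± 1.15 and 21.9 ± 6.46 CPM (SD, n = 3 each), a log2 fold change of 1.46 ± 0.23 (SE). Leaving out LSD1-mKO mouse 1 gave 1.20.

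Most other keratins were absent or at a few reads in this muscle. Of 51 listed keratin genes, 27 had 0 counts in all 6 libraries, among them the basal epithelial keratin Krt5. The other 24 had reads, but only Krt10 and Krt222 were high enough to test. Krt8 and Krt18, the pair of simple epithelia, reached at most 2 and 11 counts in a library, and Krt14 at most 1. Krt10, a keratin of differentiated epidermis, was 4.43 ± 0.481 CPM in WT and 2.91 ± 0.373 CPM in LSD1-mKO (log2 fold change -0.59 ± 0.21 SE, edgeR adjusted p = 0.701). Every LSD1-mKO mouse lay below every WT mouse for Krt10. Krt222 had 8.78 ± 1.63 and 9.63 ± 0.760 CPM (0.14 ± 0.17, adjusted p = 0.896). An epithelial marker list summed to 5.31 to 6.22 CPM in WT and 4.05 to 5.33 CPM in LSD1-mKO, with Krt5, Krt1 and Epcam at 0 in every library. Krt10 is in this list and made up most of each sum, so the sums largely repeat its values.

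Kcng4 encodes Kv6.4, a silent potassium channel subunit that forms no channel alone and modifies other potassium channel subunits. It lies at chr8:119623854-119635680 on the minus strand. Its level was 9.52, 10.4 and 7.73 CPM in WT mice 1 to 3 and 23.7, 18.4 and 29.3 CPM in LSD1-mKO mice 1 to 3. The genotypes did not overlap, and LSD1-mKO mouse 3 was highest. Means were 9.20 ± 1.34 and 23.8 ± 5.48 CPM (SD, n = 3 each), with a log2 fold change of 1.37 ± 0.19 (SE).

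Other channel genes were read beside it. Kcnb2 had at most 1 count in a library. Among the sister silent subunits, Kcng1 and Kcng3 reached at most 5 and 1 counts. Kcng2 had 2.65, 1.89 and 3.55 CPM in WT and 6.29, 3.91 and 4.94 CPM in LSD1-mKO mice 1 to 3. Its groups did not overlap, and its log2 fold change of 0.90 ± 0.29 (SE) was the largest of the 14 channel genes tested, but the edgeR adjusted p was 0.660. At the other end, Kcnc2 had -0.52 ± 0.40 (adjusted p = 0.832).

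Rom1 and Tmem56 encode proteins that cross the membrane several times. Rom1 is a tetraspanin of photoreceptor outer segments, where it pairs with Prph2, and lies at chr19:8927391-8929356 on the minus strand. Rom1 stood at 4.82, 4.05 and 6.31 CPM in WT mice 1 to 3 and at 12.3, 9.63 and 10.6 CPM in LSD1-mKO mice 1 to 3. The groups did not overlap and the LSD1-mKO mice lay close together. Means were 5.06 ± 1.15 and 10.8 ± 1.34 CPM (SD, n = 3 each), a log2 fold change of 1.09 ± 0.20 (SE).

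Prph2, the photoreceptor partner of Rom1, had 1 count in 1 library and 0 in the others, and a list of 8 neuron and photoreceptor markers summed to 0.482 to 0.977 CPM in WT and 0.279 to 1.01 CPM in LSD1-mKO. Of the 24 other tetraspanins tested, 10 were fitted higher and 14 lower, with a median log2 fold change of -0.025. Tspan12, which acts in norrin signaling, was 22.7, 29.3 and 31.5 CPM in WT and 42.3, 41.3 and 43.6 CPM in LSD1-mKO, without overlap. Its log2 fold change of 0.60 ± 0.12 (SE) was not called by edgeR (adjusted p = 0.340) and was called by DESeq2. Cd9 and Cd81, widely expressed tetraspanins, had -0.24 ± 0.15 and -0.10 ± 0.12 (adjusted p = 0.781 and 0.892), and Cd37, of leukocytes, the lowest value of -0.64 ± 0.44 (adjusted p = 0.805).

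Tmem56, now named Tlcd4, encodes a protein with a TLC domain, a fold shared with ceramide synthases. It lies at chr3:121201761-121283098 on the minus strand. Tmem56 stood at 5.42, 3.60 and 7.11 CPM in WT mice 1 to 3 and at 11.6, 9.19 and 16.4 CPM in LSD1-mKO mice 1 to 3. The groups did not overlap but came close: LSD1-mKO mouse 2 was 1.29 times WT mouse 3. Means were 5.38 ± 1.75 and 12.4 ± 3.66 CPM (SD, n = 3 each), a log2 fold change of 1.20 ± 0.29 (SE). None of its relatives was called, and 9 of the 11 tested TLC-domain genes were fitted lower and 2 higher by edgeR, from -0.45 ± 0.49 for Cers6 (adjusted p = 0.884) to 0.20 ± 0.17 for Fam57b (adjusted p = 0.851). The close relatives Tlcd1 and Tlcd2 had -0.09 ± 0.26 and -0.33 ± 0.31 (adjusted p = 0.957 and 0.866), the ceramide synthase Cers1 -0.06 ± 0.30 (adjusted p = 0.978) and the translocon protein Tram1 -0.02 ± 0.14 (adjusted p = 0.984).

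Gm4980, named Tpbgl in RefSeq, encodes a protein like the trophoblast glycoprotein and is a gene of 1 exon at chr7:99624082-99627103 on the minus strand. It showed the largest change and the widest spread of the 8. Its level was 0.844, 2.43 and 2.49 CPM in WT mice 1 to 3, from 7, 27 and 28 counts. In LSD1-mKO mice 1 to 3 it was 3.55, 9.63 and 10.6 CPM, from 48, 133 and 114 counts. Within each genotype mouse 1 was low and the other mice lay close together. Means were 1.92 ± 0.933 and 7.93 ± 3.83 CPM (SD, n = 3 each), a log2 fold change of 1.99 ± 0.48 (SE). The value was 1.68 without WT mouse 1 and 2.35 without LSD1-mKO mouse 1. Counting intervals of the nearest mice overlapped, 1.65 to 3.60 CPM in WT mouse 3 and 2.62 to 4.71 CPM in LSD1-mKO mouse 1 (95% exact Poisson, for counting error only). Such intervals also overlapped for Csdc2, Spsb4 and Tmem56, and they lay apart for the other 4 genes.

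Csdc2 encodes a cold shock domain protein that binds RNA, and lies at chr15:81936759-81950941, the only one of the 8 on the plus strand. It stood at 3.38, 2.97 and 4.44 CPM in WT mice 1 to 3 and at 10.4, 8.61 and 7.17 CPM in LSD1-mKO mice 1 to 3. The genotypes did not overlap, and LSD1-mKO mouse 1 was highest. Means were 3.60 ± 0.760 and 8.74 ± 1.63 CPM (SD, n = 3 each), a log2 fold change of 1.28 ± 0.22 (SE). Its paralog Carhsp1 was far more abundant in reads, at 47.9 ± 11.0 and 56.2 ± 4.12 CPM (0.23 ± 0.15, edgeR adjusted p = 0.798). The other cold shock domain genes tested ran from -0.04 ± 0.15 for Ybx3 (adjusted p = 0.971) to 0.25 ± 0.19 for Ybx2 (adjusted p = 0.829), with Ybx1 at 0.02 ± 0.10 (adjusted p = 0.971).

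Spsb4 and Rnf157 belong to the ubiquitin system. Spsb4 is a substrate receptor with a SPRY domain and a SOCS box, which joins a ligase of elongins and Cul5; its family is known for binding Nos2. The gene lies at chr9:96943482-97018843 on the minus strand. Spsb4 was 2.41, 4.50 and 3.11 CPM in WT mice 1 to 3 and 9.03, 6.51 and 8.01 CPM in LSD1-mKO mice 1 to 3. The groups did not overlap. Means were 3.34 ± 1.06 and 7.85 ± 1.26 CPM (SD, n = 3 each), a log2 fold change of 1.21 ± 0.25 (SE).

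The rest of the SPSB ligase list held 9 tested genes, of which 6 were fitted higher and 3 lower. Spsb1 had the lowest log2 fold change, -0.31 ± 0.29, with Spsb2 at 0.24 ± 0.23 and Spsb3 at 0.23 ± 0.10 (edgeR adjusted p = 0.868, 0.868 and 0.766). Nos2, the inducible nitric oxide synthase, had the highest, 0.29 ± 0.39 (adjusted p = 0.907), and its WT mice ranged from 2.89 to 8.10 CPM. Cul5, the scaffold of the ligase, stood at 122 ± 2.92 CPM in WT and 124 ± 4.90 CPM in LSD1-mKO (0.03 ± 0.08, adjusted p = 0.951).

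Rnf157 is a RING-type ubiquitin ligase related to Mgrn1, and is known to act on the adaptor protein Apbb1. It lies at chr11:116336353-116413032 on the minus strand. Its level was 7.72, 8.64 and 8.08 CPM in WT mice 1 to 3 and 15.3, 14.8 and 18.3 CPM in LSD1-mKO mice 1 to 3. The WT mice were closer to each other than for any of the other 7 genes, and no LSD1-mKO mouse came near them. Means were 8.15 ± 0.467 and 16.1 ± 1.88 CPM (SD, n = 3 each), a log2 fold change of 0.98 ± 0.14 (SE), the smallest of the 8. Mgrn1 had 0.07 ± 0.09, Apbb1 0.19 ± 0.12, and the membrane protein gene Atrn -0.03 ± 0.09 (edgeR adjusted p = 0.906, 0.781 and 0.955).

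Over the 7 family and partner lists, 69 of 154 genes were tested and 0 were called by edgeR in either direction, where 0.0156% of all tested genes were called. At an unadjusted edgeR p under 0.05 there were 2 higher, Kcng2 and Tspan12, and 2 lower, Krt10 and Tspan4, beside 6.4% of all tested genes in either direction. By limma voom 0 were called, and by DESeq2 1, Tspan12. Fitted values were higher for 35 of the 69, with a median log2 fold change of 0.0025 beside -0.020 for all tested genes. In the separate mice, 5 genes had every LSD1-mKO mouse above every WT mouse (6.63% of all tested genes) and 2 every one below (6.1%). The lists and the 8 genes were drawn up with results of these data known.

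**Figure D2:**
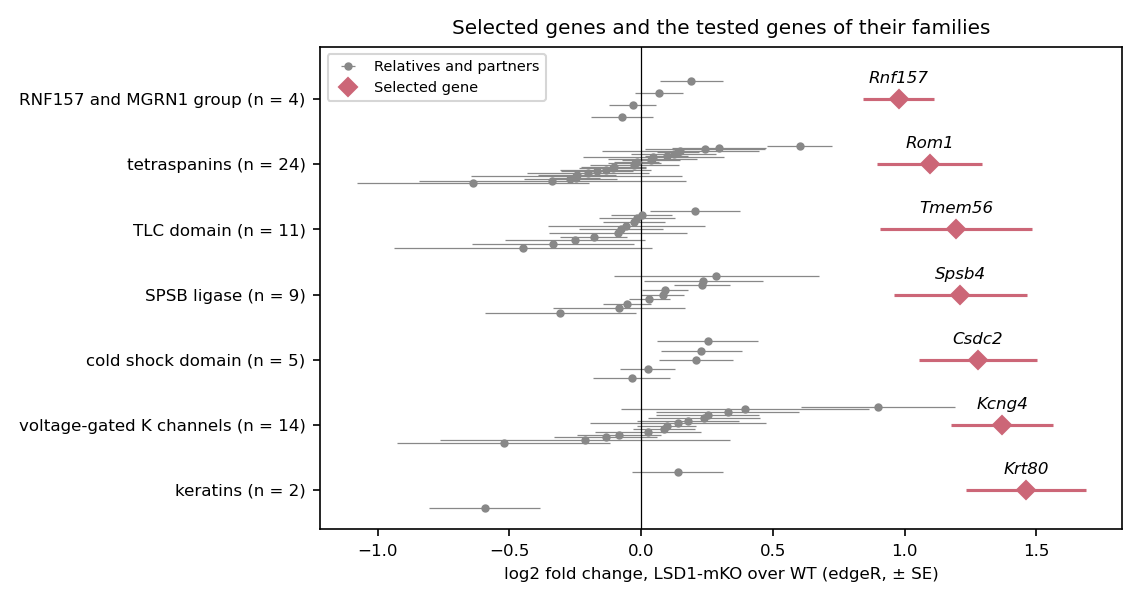
Log2 fold change of LSD1-mKO over WT (horizontal axis, edgeR, bars ± SE) for 7 of the selected genes (red diamonds) and for the tested genes of their family and partner lists (grey points), 1 row per list with the number of points as n. The grey points lie between -0.64 and 0.90 and the red ones between 0.98 and 1.46; the red ones were picked for their rise, and no list was drawn up for Gm4980.

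Each of the 8 genes had its genotypes apart, in the direction that the selection fixed, beside 6.63% of all tested genes. By DESeq2, the kind of fit that picked them, 8 of the 8 were called, beside 0.257% of tested genes called higher. By edgeR 0 of the 8 were called at an adjusted p of 0.05, beside 0.0078% of tested genes called higher, and limma voom called 0. At an unadjusted edgeR p under 0.05 there were 8 of the 8, beside 6.4% of tested genes in either direction. Because the rule used this contrast, nothing is read from these counts. The median log2 fold change of the 8 was 1.24.

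Around the 2-fold line the choice was not sharp. The stated rule names a fold and no adjusted p, and only genes that DESeq2 called (adjusted p under 0.05) are compared here. Genes with a similar fold and no call are left out. Outside cluster 6, DESeq2 called 23 genes higher, of which 11 had a log2 fold change of at least 1, and 7 of these 11 are among the 8. The other 4 were H2-L, Ak4, Arntl and Acot1, which were called and met the fold line as well and were not picked. Just above the line lay Rom1 at 1.10 ± 0.26 (SE), Acot1 at 1.17 ± 0.25 and Tmem56 at 1.21 ± 0.31 in the DESeq2 fit. Rnf157, at 0.99 ± 0.20, lay just below it and was included, while Mfsd4 at 0.96 ± 0.22, Abat at 0.89 ± 0.16 and Colq at 0.82 ± 0.21 were the next and were not.

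Spread between mice of a genotype holds both biological variation and counting error, and separate animals are likely to exceed the latter. The coefficient of variation between 3 mice exceeded the part expected from Poisson counting in 15 of 16 combinations of gene and genotype. The exception was Rnf157 in WT, at 5.73% beside 11.0% from counting. Gm4980 varied most, by 48.6% in WT and 48.2% in LSD1-mKO, beside 22.1% and 10.2% from counting. Krt80 varied by 14.4% in WT and 29.5% in LSD1-mKO, whereas Spsb4 varied by 31.9% and 16.1%, so no genotype was the more variable for every gene. The highest LSD1-mKO mouse was mouse 1 for Krt80, Csdc2, Spsb4 and Rom1 and mouse 3 for Kcng4, Tmem56, Rnf157 and Gm4980. Mouse 2 was the highest for 0 genes and the lowest for 6.

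**Figure D3:**
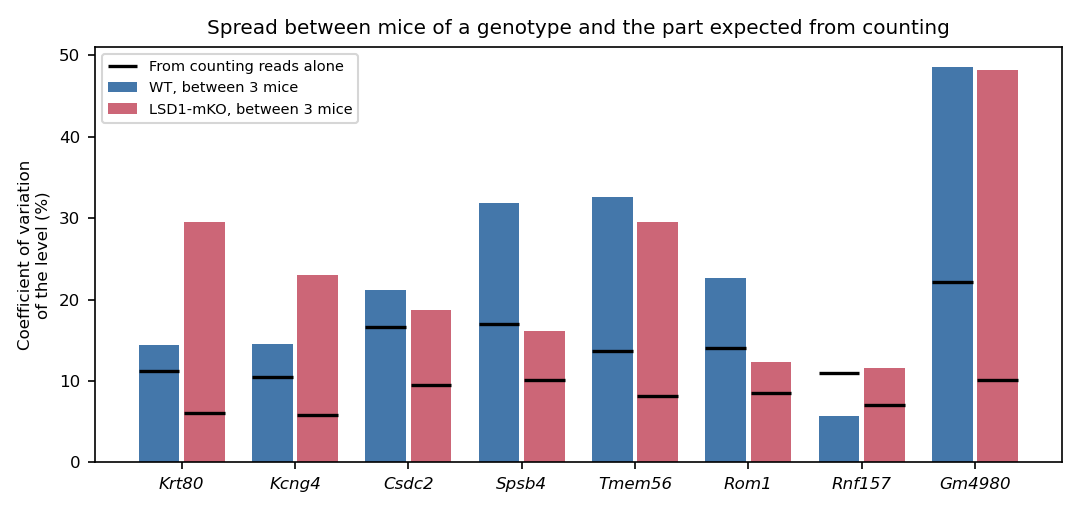
Coefficient of variation of the CPM level between the 3 mice of a genotype (vertical axis, in %, bars, WT blue and LSD1-mKO red) for each gene. Black lines mark the part expected from counting reads alone; the bar lies below its line for Rnf157 in WT only, and the bars of Gm4980 are the tallest, at 48.6% and 48.2%.

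WT mouse 3 and LSD1-mKO mouse 3 had nearly equal totals, 10989846 and 10984664, so their raw counts can be set side by side. Their TMM factors still differed, at 1.03 and 0.978. This sets a single mouse against a single mouse for genes picked for their rise, so the direction is no check. Raw counts there were 97 and 219 for Krt80 and 87 and 315 for Kcng4, and the ratio of LSD1-mKO to WT over the 8 genes ran from 1.54 for Csdc2 to 4.07 for Gm4980.

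Per transcript length, in transcripts per 1000000 (TPM), Rom1 led in both genotypes, at 7.41 ± 1.70 TPM in WT and 15.8 ± 1.87 TPM in LSD1-mKO (SD, n = 3 each). In WT the order went on with Kcng4 at 5.39 ± 0.976, Krt80 at 4.51 ± 0.456, Rnf157 at 3.94 ± 0.518, Csdc2 at 3.21 ± 0.703, Spsb4 at 2.78 ± 1.08, Tmem56 at 1.78 ± 0.566 and Gm4980 at 1.45 ± 0.759 TPM. Each neighbor in that order overlapped with the next in its range over mice. In LSD1-mKO the only gap lay between Krt80, at 12.3 ± 3.57 TPM, and Csdc2, at 7.74 ± 1.41 TPM. It was narrow, with the lowest Krt80 mouse at 9.23 TPM and the highest Csdc2 mouse at 9.19 TPM. Gm4980 was last in WT, while in LSD1-mKO Tmem56 was last at 4.09 ± 1.22 TPM with Gm4980 at 5.80 ± 2.82 TPM, their ranges overlapping.

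Those genes of the count table that lie next to the 8 on the chromosome, or overlap them, were read as well. Of 17 such genes, 16 flanking and 1 inside Krt80 (Mir1941), 12 were tested. EdgeR, DESeq2 and limma voom each called 0, beside 0.0156% of all tested genes called by edgeR, and 2 had an unadjusted edgeR p under 0.05, beside 6.4% of all. With calls this rare, 0 of 12 does not set these genes apart from others. The fitted log2 fold changes ran from -0.55 to 0.50 with a median of 0.086, 7 higher and 5 lower. In the separate mice, 2 of the 12 had every LSD1-mKO mouse above every WT mouse (6.63% of all tested genes). Only 1 had every one below (6.1%). Pmm1, a phosphomannomutase gene on the opposite strand, ends 166 bases from Csdc2. Pmm1 had 31.6, 28.5 and 30.6 CPM in WT and 38.5, 46.0 and 38.9 CPM in LSD1-mKO, without overlap (log2 fold change 0.45 ± 0.10 SE, edgeR adjusted p = 0.432).

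Rom1 lies between B3gat3 and Eml3, 154 and 195 bases away and both on the opposite strand. B3gat3, a glycosaminoglycan enzyme gene, had a log2 fold change of 0.08 ± 0.11 (edgeR adjusted p = 0.898). Eml3, a microtubule-associated protein gene, had 12.7, 13.9 and 13.9 CPM in WT and 11.2, 10.1 and 11.2 CPM in LSD1-mKO, lower without overlap (-0.32 ± 0.12, adjusted p = 0.726). The genes beside Tmem56 were Alg14 at 0.35 ± 0.16, higher without overlap, and Rwdd3 at 0.32 ± 0.42 (adjusted p = 0.766 and 0.902). Those beside Spsb4 were Pxylp1 at 0.50 ± 0.30 and Slc25a36 at 0.09 ± 0.09 (adjusted p = 0.780 and 0.868).

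Beside Gm4980 lay Arrb1 at -0.19 ± 0.15 and Slco2b1 at -0.05 ± 0.25 (edgeR adjusted p = 0.837 and 0.974). Rnf157 had Ubald2 at -0.55 ± 0.35 (adjusted p = 0.781) on one side and Foxj1, near 0 counts, 953 bases away on the other. Wfdc1 beside Kcng4 had -0.08 ± 0.11 (adjusted p = 0.909). Adad2 beside Kcng4, and 6030408B16Rik and Krt7 beside Krt80, were too low to test.

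**Figure D4:**
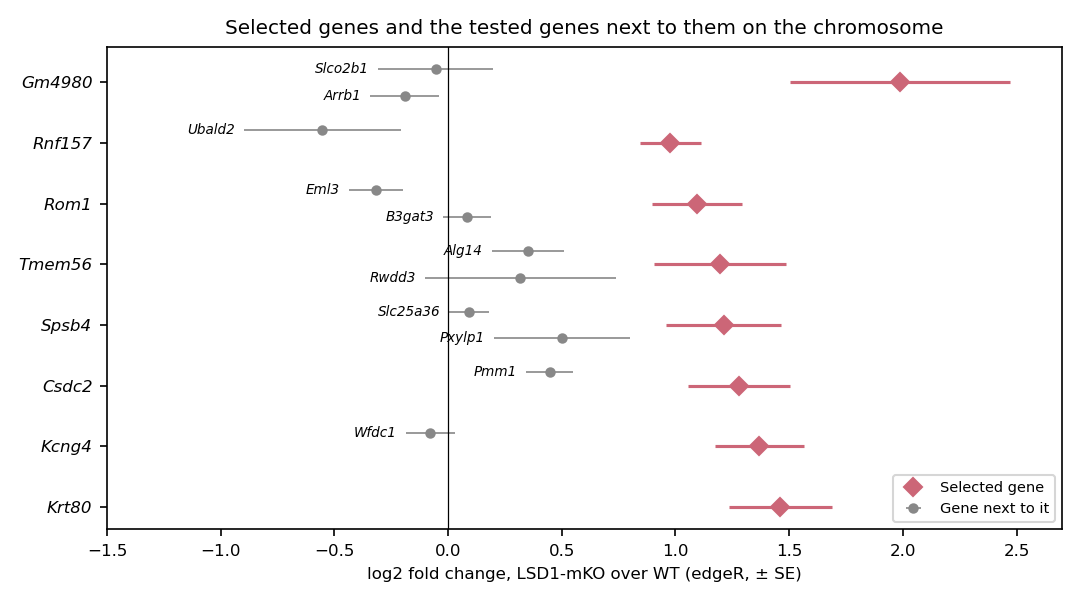
Log2 fold change of LSD1-mKO over WT (horizontal axis, edgeR, bars ± SE) for the 8 selected genes (red diamonds) and 11 tested genes next to them on the chromosome (grey, named). The grey points lie between -0.55 and 0.50, to the left of every red one, which were picked for their rise; Krt80 had no testable neighbor.

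Transcripts of other genes share sequence with some of the 8 genes. In GENCODE vM21, 37.1% of the 75-base windows of the Gm4980 transcript also lie in Gm10605, 21.8% of those of Spsb4 in Gm16010, and 2.57% of those of Krt80 in Gm35853. Both strands were searched, and the strand of a match was not recorded. The sources do not state that reads were counted by strand, so reads from such pairs cannot be told apart. The other 5 genes shared 0 such windows with another gene.

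The genes most like the 8 over the 6 mice were found by the root-mean-square difference of mean-centred log2(CPM + 0.5). Since the 8 were picked on the same contrast, their nearest genes share it too, and the values are a description over 6 mice. Spsb4 had the closest match, Arntl, which encodes the clock factor BMAL1, at 0.065 log2 units. Rnf157 was nearest to Inpp5j at 0.12, Rom1 and Csdc2 to Btg3 at 0.14 and 0.24, Kcng4 to Esrrg at 0.22, Krt80 to Fgf18 at 0.24, Tmem56 to Abat at 0.27 and Gm4980 to Arhgef19 at 0.36. Esrrg was the 1 of these in cluster 6. With a pseudocount of 2 the match changed for Krt80, Kcng4 and Csdc2.

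Marker genes of the cells in a soleus sample were compared as lists. Over 12 lists edgeR, DESeq2 and limma voom called 0 of 73 tested entries, beside 0.0156% of all tested genes called by edgeR. An unadjusted edgeR p under 0.05 was reached by 4, Actn3, Hba-a1, C1qc and Krt10, beside 6.4% of all. Slow fiber genes summed per library to 36607 to 45771 CPM in WT and 39831 to 48541 CPM in LSD1-mKO, and fast fiber genes to 54407 to 78414 and 54326 to 66710 CPM. Of the 12 fast fiber genes, 4 were fitted higher and 8 lower, with a median log2 fold change of -0.075. Within that list Actn3, the alpha-actinin of fast fibers, was 91.9, 63.6 and 198 CPM in WT mice 1 to 3 and 497, 165 and 341 CPM in LSD1-mKO mice 1 to 3. Its groups overlapped, with means of 118 ± 70.9 and 334 ± 167 CPM (SD, n = 3 each; edgeR adjusted p = 0.636), a ratio within the range of the 8 genes. Schwann cell markers summed to 77.1 to 83.0 and 72.7 to 94.1 CPM, satellite cell markers to 39.6 to 41.8 and 37.2 to 51.6 CPM, and denervation and embryonic genes to 276 to 449 and 228 to 325 CPM. Fibroblast and tendon markers spread more, 1461 to 4855 CPM in WT and 1581 to 3194 CPM in LSD1-mKO, with all 8 of them fitted lower, as were all 7 macrophage markers (126 to 372 and 123 to 231 CPM). Endothelial (523 to 755 and 550 to 651 CPM), adipocyte (128 to 201 and 143 to 180 CPM) and red blood cell markers (201 to 535 and 260 to 420 CPM) overlapped between genotypes. The hemoglobin gene Hba-a1, whose reads may be split with its near-identical copy Hba-a2, was 13.5, 5.76 and 0 CPM in WT and 2.59, 78.0 and 202 CPM in LSD1-mKO mice 1 to 3 (edgeR adjusted p = 0.684). The other 4 red blood cell markers, Hba-a2 among them, were fitted lower. The macrophage complement gene C1qc was 16.0, 40.4 and 36.2 CPM in WT and 22.3, 12.0 and 19.3 CPM in LSD1-mKO mice 1 to 3, with overlap (edgeR adjusted p = 0.766). The part of any of these in the values of the 8 genes was not tested.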

How the data were processed

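Poly(A) RNA of soleus was read as 75-base single-end reads, and the authors aligned it to mm10 with STAR. The authors deposited estimated counts per gene for the 6 libraries, without normalization; the counting tool, annotation and strand setting are not given in the sources used here. A second deposited table holds the authors' own DESeq2 comparison (mean, fold change, error, p-values) and was not used. The counts were rounded, scaled by TMM and fitted with edgeR 4.0.16 (filterByExpr, quasi-likelihood test, Benjamini-Hochberg adjustment over 12828 genes, threshold 0.05), with DESeq2 1.42.0 and limma 3.58.1 (voom) as alternatives, in R 4.3.3. The fits were tested on simulated data. TPM used the longest transcript of GENCODE vM21, which gave a length for 24018 of 24411 genes. Libraries differed from each other by a chi-square per gene of at least 9.88, so none was counted as a repeat. Where nothing says otherwise, p-values measure the spread between these mice only.

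The 8 genes and all lists were chosen with earlier results of these data known. The genes named are the 8, Kdm1a, a fixed set of relatives and partners from the lists with each list's extremes, the genes next to the 8, the single most similar gene of each, and 3 genes on either side of the 2-fold line. Genes of the lists with an unadjusted p under 0.05, the motif letters and Tpbg were added with their values in view. Alternatives covered the tool, scaling, filter, rounding, prior count, replicate block, each mouse left out, the pseudocount and the promoter window. Protein lengths and identities were not analysed here. Some genes of the lists and some genes next to the 8 are not reported here by name.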

Additional observations from a re-analysis of the deposited data

How the results depend on the processing

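The log2 fold changes of the 8 genes kept their sign and moved by less than 1 SD between mice in all 127 alternative fits. Leaving out 1 of 3 mice can hardly move a group mean by that much, so this limit says little for those fits. The values ran from 0.88 to 2.35 with a mouse left out and from 0.95 to 2.04 otherwise. Gm4980 could not be fitted where at least 10 counts were asked of every library. The median over the 8 ran from 1.17 to 1.38 with a mouse left out. Under each scaling 8 of 8 lay apart between genotypes, which the choice of the genes largely fixes. The Kdm1a log2 fold change ran from -1.30 to -1.17 with a mouse left out. With the replicate number as a block it was -1.23 and no longer called, and 0 genes were called lower. Deviations of same-numbered mice from their group means correlated at -0.352, -0.107 and -0.150. These values give no sign that the numbers pair the mice, but they cannot exclude it. Of family and partner genes 1 was called higher by DESeq2. Genes called across the table were 1 higher and 1 lower in the edgeR fit, 33 and 9 by DESeq2 and 8 and 3 without a filter, 2 higher by limma voom and 2 higher on unrounded counts. With a mouse left out they were 1 to 2 higher and 0 to 1 lower. The cause of these differences was not tested. In the 150 bases before the start, AGGTCA was found in 1 of the 6 genes, CCAAT in 1 and the GC box in 4. The comparison of protein lengths and identities was not run. Low counts limit the precision most for Gm4980, with 7 in WT mouse 1.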

Other observations

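Tpbg, the relative after which Tpbgl (Gm4980) is named, encodes a trophoblast glycoprotein of the cell surface and was looked up after the values of Gm4980 were seen. It had 1.08, 2.52 and 2.58 CPM in WT mice 1 to 3 and 1.92, 1.52 and 1.40 CPM in LSD1-mKO mice 1 to 3. The groups overlapped, with a log2 fold change of -0.38 ± 0.36 (SE, edgeR adjusted p = 0.868). In WT mouse 1 both Tpbg and Gm4980 were at their lowest, from few reads. Rom1 and Gm4980 have the same estimated counts in LSD1-mKO mouse 2 (133) and in LSD1-mKO mouse 3 (114) and different ones in the other 4 libraries, where Rom1 had 40, 45, 71 and 166 and Gm4980 had 7, 27, 28 and 48. The genes lie on different chromosomes and their transcripts share no 75-base window.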
